A study of Mus musculus with 8 samples.

Results

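Open chromatin regions lying next to chemosensory receptor genes are described here in natural killer (NK) cells, the cytotoxic innate lymphocytes. The peaks of 8 ATAC-seq libraries were merged into 55946 regions wherever they overlapped by at least 1 bp. A region was a member if the nearest end of a protein-coding gene, measured from the middle of the region and at most 50 kb away, belonged to a gene whose symbol starts with Olfr, Vmn1r, Vmn2r, Tas2r or Taar. The rule used positions and gene names, and no measured difference. It gave 120 regions, 0.214% of all regions, next to 79 receptor genes.

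ATAC-seq marks open chromatin by letting a transposase insert sequencing adapters into accessible DNA. The MUT mice carried alanine in place of the serines at positions 303 and 307 of HSF1, the transcription factor that drives heat shock genes, and both residues are phosphorylation sites of that protein. The WT mice had wild-type HSF1, and both genotypes were sampled at steady state. NK cells were enriched from spleen with DX5 beads, then sorted as CD49b+ and CD3e-, and each mouse gave 1 library, with 4 mice per genotype (MUT 26, 27, 28 and 29, WT 4, 5, 6 and 7). The labels give neither strain, age, sex nor litter, and the replicate numbers form a separate block in each genotype, so that any other difference between the MUT and WT mice cannot be told apart from the genotype.

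Chemosensory receptors are G protein-coupled receptors that sensory cells use to detect chemicals. Olfr genes encode odorant receptors of olfactory neurons, Vmn1r and Vmn2r genes encode pheromone receptors of the vomeronasal organ, Tas2r genes encode bitter taste receptors and Taar genes encode receptors for trace amines. The genes lie in large clusters, many members are close copies of each other, and an olfactory neuron transcribes a single odorant receptor allele while the others stay packed in heterochromatin. The best known use of all 5 families is in sensory epithelia. Proximity alone does not tell which gene, if any, a region controls.

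Of the 120 regions, 4 overlapped a promoter window, taken as the 250 bases before to the 50 bases after a transcript start in RefSeq (GRCm38.p6). These 4 windows are shown because each is overlapped by a member region. They are read 5′ to 3′ on the strand of the transcript. The windows of the receptor genes Vmn2r29 (chr7:7278240-7278539, minus strand) and Olfr1258 (chr2:89929561-89929860, plus strand) came first. The windows of the long non-coding RNA genes Gm41538 (chr17:18968992-18969291, minus strand), in a region linked to Vmn2r97, and Gm30318 (chr4:43822904-43823203, plus strand), in a region linked to Olfr156, were the other two. Gm41538 has another annotated start close by, whose window is not shown. Capitals in Vmn2r29 mark a match to a CTCF motif (CC, any 3 bases, AG, any 2 bases, GGC) followed by a match to the ETS motif CCGGAA. Capitals in Olfr1258 mark the last 18 bases, inside the peak of library MUT 28, which does not reach the start itself. Capitals in Gm41538 mark the 236 bases inside the peaks of all 4 MUT libraries, and those in Gm30318 mark 3 matches to the T-box motif AGGTGTGA or its reverse complement.
Vmn2r29: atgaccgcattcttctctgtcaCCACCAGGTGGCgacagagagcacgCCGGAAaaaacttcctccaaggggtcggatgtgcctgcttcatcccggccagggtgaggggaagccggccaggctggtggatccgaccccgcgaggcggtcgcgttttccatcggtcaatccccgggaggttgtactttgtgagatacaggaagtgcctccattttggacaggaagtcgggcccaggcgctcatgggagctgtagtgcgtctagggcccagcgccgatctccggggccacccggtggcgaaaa
Olfr1258: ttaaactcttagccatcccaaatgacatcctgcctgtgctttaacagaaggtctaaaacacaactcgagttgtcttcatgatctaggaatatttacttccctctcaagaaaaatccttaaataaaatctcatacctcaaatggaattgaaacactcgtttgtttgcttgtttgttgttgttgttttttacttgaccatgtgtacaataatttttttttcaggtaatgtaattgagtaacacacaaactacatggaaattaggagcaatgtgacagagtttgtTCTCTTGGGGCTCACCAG
Gm41538: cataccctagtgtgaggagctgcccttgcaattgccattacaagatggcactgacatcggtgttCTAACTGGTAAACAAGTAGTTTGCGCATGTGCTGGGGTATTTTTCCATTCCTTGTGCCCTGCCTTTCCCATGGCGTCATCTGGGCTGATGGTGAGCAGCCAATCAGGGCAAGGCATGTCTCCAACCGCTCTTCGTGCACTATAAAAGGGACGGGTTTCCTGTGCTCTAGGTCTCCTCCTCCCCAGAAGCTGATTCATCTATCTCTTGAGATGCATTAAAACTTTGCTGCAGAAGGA
Gm30318: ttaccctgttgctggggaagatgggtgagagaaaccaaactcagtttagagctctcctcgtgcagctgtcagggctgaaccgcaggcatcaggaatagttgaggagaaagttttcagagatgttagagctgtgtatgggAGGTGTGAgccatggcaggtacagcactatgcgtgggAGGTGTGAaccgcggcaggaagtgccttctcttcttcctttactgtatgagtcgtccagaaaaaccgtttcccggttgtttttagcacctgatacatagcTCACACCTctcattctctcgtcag

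The MUT lists held 44827, 49627, 46623 and 44333 peaks (libraries 26, 27, 28 and 29) and the WT lists held 45004, 46102, 45066 and 42695 peaks (libraries 4, 5, 6 and 7). Read depth is unknown, so a missing peak means that none was called. All 8 of the NK cell marker genes had a peak within 1 kb of a gene end in all 8 libraries. So did 4 of 6 T cell marker genes and 4 of 6 myeloid marker genes, against 0 of 6 B cell marker genes and 2 of 8 olfactory neuron marker genes. At Klrb1c, which encodes the NK cell receptor NK1.1, linked peak length was 5360 ± 213 bp in MUT and 6347 ± 259 bp in WT (SD, n = 4 each; limma, adjusted p = 0.0271), and no other marker gene passed the test.

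Few peaks lay in receptor gene territory. The 1515 receptor genes make up 6.92% of the 21887 protein-coding genes, yet 79 of them (5.21%) had a linked region, against 14422 of 20372 other coding genes (70.8%). The stretches of genome that lie closer to a receptor gene end than to any other, within the same 50 kb, add up to 49.7 Mb and held 2.41 regions per Mb. The corresponding 1276 Mb of the other coding genes held 36.1 regions per Mb. These are descriptions of where peaks were called, and no test was run on them. How reads that map to several near-identical receptor genes were filtered is not given in the sources used here, and its part in these counts was not tested.

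The odorant receptor genes held most of the members. There were 82 regions at 58 of 1110 Olfr genes (2.86 per Mb), 13 regions at 7 of 231 Vmn1r genes (1.41 per Mb), 18 regions at 11 of 124 Vmn2r genes (1.72 per Mb), 6 regions at 2 of 35 Tas2r genes (5.41 per Mb) and 1 region at 1 of 15 Taar genes (4.62 per Mb). Every family lay below the density at other coding genes. Most receptor genes with a region had 1 region (55 genes), 13 genes had 2, 6 genes had 3, 4 genes had 4 and Tas2r134 had 5. Chromosome 7, with 417 receptor genes, held 23 regions, chromosome 17 held 17 and chromosome 2 held 15. Chromosome 9 has 130 receptor genes in the table, and 0 regions were linked to them. Chromosome 8 held 3 regions beside 5 receptor genes.

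**Figure D1:**
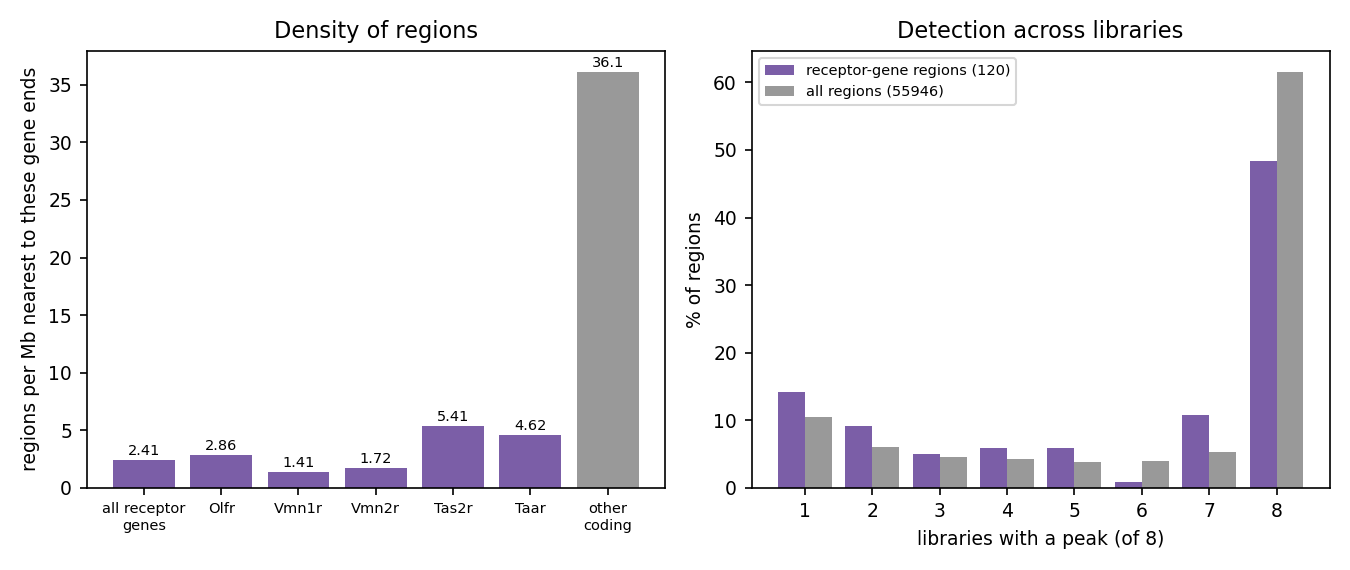
Left, regions per Mb of genome nearest to the ends of receptor genes, in all and by family, and of other protein-coding genes; each receptor family lies below 6 per Mb, against 36.1 for other coding genes. Right, the share of regions (%) with a peak in 1 to 8 libraries, for the 120 receptor-gene regions and for all 55946 regions; the class of 8 libraries holds 48.3% of the receptor-gene regions and 61.6% of all regions.

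A peak was called in all 8 libraries in 58 of 120 regions (48.3%), against 61.6% of all regions, and in a single library in 17 (14.2%), against 10.5% of all regions. Of the 120 members, 103 had a peak in at least 2 libraries and entered the tests, and the 58 are 56.3% of these, where the same share over all 50044 tested regions was 68.9%. Of the 17 peaks seen once, 10 were in MUT libraries and 7 in WT libraries, with 6 of them in MUT 28. Over all regions the corresponding numbers were 3543 in MUT libraries and 2359 in WT libraries, with 804 in MUT 28. Of the 13 regions lacking a peak in a single library, 5 lacked it in MUT and 8 in WT, 4 of them in WT 7, the shortest list. Over all regions these numbers were 1311 in MUT and 1694 in WT, with 792 in WT 7.

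The members were shorter than other regions, with a median width of 362.5 bp against 434 bp for all regions. The authors' score for each peak was turned into its percentile within its own list, and a region's value is the median over the libraries with a peak. The median of this value was 32.4 over the 120 members and 38.2 over all regions, but it was 69.9 over the 58 members with a peak in all 8 libraries and 61.7 over all such regions. The members thus held both weak, scattered peaks and strong, repeatable ones.

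**Figure D2:**
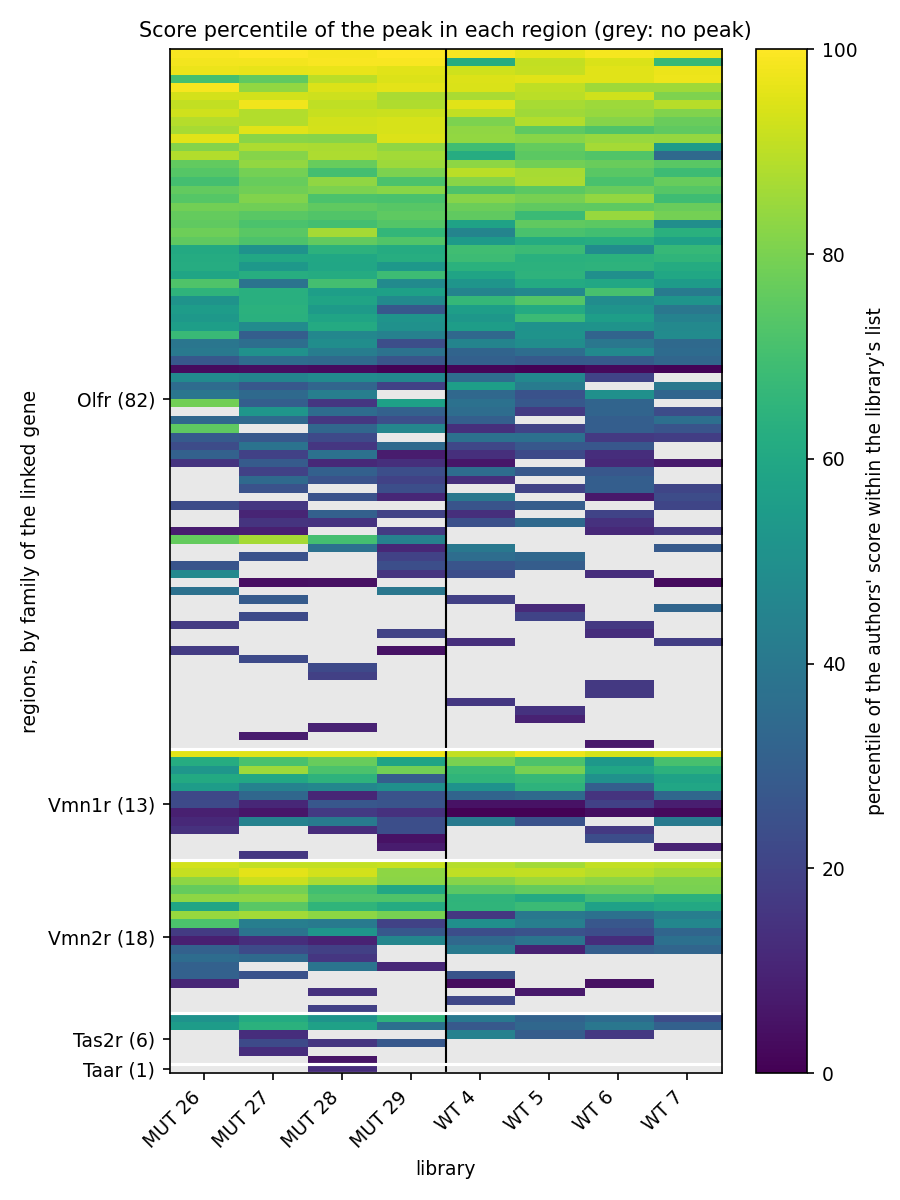
Percentile of the authors' score of the peak in each of the 120 regions (rows, grouped by family, strongest on top) in each library (columns, 4 MUT then 4 WT); grey means that no peak was called. In each of the 4 larger families the upper rows are filled in all 8 libraries, and the single Taar region has 1 peak, in MUT 28.

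The genotypes had similar shares of their peaks in these regions. The number of member regions with a peak was 83, 90, 90 and 87 in the MUT libraries (87.5 ± 3.32, SD, n = 4) and 88, 81, 86 and 76 in the WT libraries (82.8 ± 5.38, SD, n = 4). Member peaks made up 0.187%, 0.189%, 0.197% and 0.201% of all peaks in the MUT libraries and 0.198%, 0.182%, 0.200% and 0.185% in the WT libraries. The means were 0.194 ± 0.00635% in MUT and 0.191 ± 0.00884% in WT, and the ranges overlapped. The exact binomial 95% intervals of the 8 shares, which cover counting error only, lay between 0.145% and 0.247%.

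Among the odorant receptor regions, the highest scores belonged to peaks that both genotypes had in every library. The region linked to Olfr1423 (chromosome 19, 12026575 to 12027192), 8925 bp from that gene, had the highest median score percentile of all members, 98.9. Its peaks were 464, 481, 475 and 439 bp long in MUT libraries and 465, 491, 612 and 491 bp in WT libraries. A pair of regions on chromosome 8 followed, with percentiles of 96.2 near Olfr373 and 95.9 inside Olfr374. Near Olfr373 the percentiles were 98.2, 98.3, 99.0 and 99.1 in MUT libraries and 62.1, 90.7, 94.3 and 67.0 in WT libraries. These are ranks within lists and were not tested, and the peak lengths there overlapped between the genotypes (limma, adjusted p = 0.894). In Olfr374 (region 72109632 to 72110449) peaks spanned 799, 771, 790 and 752 bp in MUT libraries and 738, 740, 743 and 731 bp in WT libraries. All 4 MUT lengths there were above all 4 WT lengths, by little, and the difference did not pass the test (log2 0.03, SE 0.0382, limma, adjusted p = 0.823). Olfr1513 (94.8), Olfr140 (92.5), Olfr288 (91.1) and Olfr266 (89.98) made up the rest of the odorant receptor regions among the 10 members with the highest percentiles. The regions at Olfr288 and Olfr266 overlap the non-coding RNA genes Gm33909 and Gm35507, and the end of Cd53, a tetraspanin gene of leukocytes, is 42205 bp from the Olfr266 region.

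Regions right at a receptor gene were the minority. The middle of 16 of 120 regions lay inside the receptor gene, 21 lay inside it or within 1 kb of its ends, and 48 were more than 10 kb away, with a median distance of 8494.5 bp. Of the 21, 13 had a peak in all 8 libraries. These 13 were at Olfr374, Olfr140, Olfr530, Olfr1258 (a pair), Olfr433, Olfr1414, Vmn2r29, Olfr1509, Olfr420, Olfr658, Vmn2r57 and Olfr70, and their percentiles spanned 95.9 at Olfr374 to 1.93 at Olfr70. Their lengths did not pass the test in any case (lowest limma adjusted p = 0.433, at Olfr433).

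Olfr1258 (chromosome 2, 89921944 to 89930746) had the most peak length of all receptor genes. It summed to 2521, 1833, 1663 and 2276 bp in MUT libraries and 2260, 2223, 1817 and 2231 bp in WT libraries, which overlap. The averages were 2073 ± 395 bp in MUT and 2133 ± 211 bp in WT (SD, n = 4 each; log2 -0.08, limma, adjusted p = 0.868). The gene had 3 regions. The one from 89920845 to 89922369 spans the first annotated base of the gene, 89921944, and had a peak in every library. The promoter window printed above lies farther along the gene. The nearest coding gene outside the receptor families is Ptprj, which encodes a receptor-type tyrosine phosphatase, 499516 bp or more from each of the regions.

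The V1R pheromone receptor regions were fewest per Mb and were concentrated at a few genes. Vmn1r234 (chromosome 17, 21228826 to 21229816) had 4 regions, of which the one from 21214246 to 21215124 had a percentile of 94.9, with peaks of 870, 808, 783 and 790 bp in MUT libraries and 817, 794, 826 and 836 bp in WT libraries. Summed over its regions the gene had 1485 ± 128 bp in MUT and 1466 ± 52.6 bp in WT (SD, n = 4 each; limma, adjusted p = 0.907). The 4 regions linked to Vmn1r4 all overlap Nt5c3, a pyrimidine nucleotidase gene, and together had 1355 ± 30.05 bp in MUT and 1338 ± 34.8 bp in WT (SD, n = 4 each). Their percentiles were 60.5, 28.9, 15.1 and 4.77. The region linked to Vmn1r21 overlaps a small nucleolar RNA gene, Gm25726.

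Among the V2R pheromone receptor regions, a pair linked to Vmn2r87 had percentiles of 90.7 and 90.6. The first, from 130541871 to 130542668 on chromosome 10, is 44890 bp from the gene and had peaks of 790, 778, 780 and 696 bp in MUT libraries and 795, 782, 779 and 768 bp in WT libraries. The second is 1304 bp from the gene and overlaps the pseudogene Gm18755. Vmn2r87 had 1303 ± 66.5 bp in MUT and 1337 ± 10.5 bp in WT (SD, n = 4 each; limma, adjusted p = 0.619).

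The region at Vmn2r29 (chromosome 7, 7277902 to 7278645) held the only 1 of 1314 receptor promoter windows with bases in peaks of every library. Its middle is 16 bp from the gene end, and the whole window printed above lay inside the peak in all 8 libraries. The peaks were 734, 712, 669 and 732 bp long in MUT libraries and 711, 684, 716 and 658 bp in WT libraries. They overlapped between the genotypes (712 ± 30.2 bp in MUT and 692 ± 26.8 bp in WT, SD, n = 4 each). The nearest coding gene end outside the receptor families is that of Clcn4, a chloride/proton exchanger gene, 4036 bp away.

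The bitter taste and trace amine receptor regions were few. Of 6 Tas2r regions, 5 were linked to Tas2r134 and 1 to Tas2r144, and 2 had a peak in all 8 libraries. The strongest of these, from 51581323 to 51582361 on chromosome 2, had a median percentile of 45.5. The only Taar region, 3641 bp from Taar4, had a peak of 284 bp in MUT 28, with a percentile of 12.5, and none in the other 7 libraries.

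The distance limit fell in a sparse part of the distribution. The regions just inside 50 kb were those of Vmn2r87 at 44890 bp and Tas2r134 at 45669 bp, and the first regions outside it were nearest to Olfr1402 at 64971 bp and Olfr291 at 74069 bp. In all, 134 regions had a receptor gene end as the nearest coding gene end, and 14 of them were beyond 50 kb. The region near Olfr291 had a peak in all 8 libraries and a percentile of 77.6, and that near Olfr1402 was called in 4 MUT and 2 WT libraries, with a percentile of 23.2.

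Many members had a receptor gene end on 1 side only. In 58 of 120 regions the coding gene end on the other side belonged to a gene outside these families, and in 62 both flanking ends were of receptor genes. The end of another coding gene lay within 50 kb of 68 regions and within 10 kb of 18, and it was more than 100 kb away in 35. No other annotated gene overlapped 92 of the regions. Among the rest, 7 regions overlapped another coding gene, 10 a long non-coding RNA gene, 4 a pseudogene, 3 transfer RNA genes and 1 a small nucleolar RNA gene. The pair linked to Olfr524 with percentiles of 89.5 and 85.2 lies within Cd163l1, a scavenger receptor gene. The pair linked to Olfr750 overlaps the transfer RNA genes n-TPagg4 and n-TTtgt3 in one region and n-TLaag8 in the other, with percentiles of 61.7 and 29.7.

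Receptor promoter windows were poor in G and C and rarely met a peak. RefSeq gave 1314 windows for 1309 receptor genes, and 2 of them (0.152%) overlapped a region, against 11115 of 19949 windows (55.7%) of other coding genes. The median GC content was 35.8% in receptor windows (quartiles 32.3% and 39.3%) and 57.3% in windows of other coding genes (quartiles 50% and 65.3%), and the median number of CpG dinucleotides was 1 in receptor windows and 14 in the others. Windows of other coding genes that overlapped a region with peaks in all 8 libraries had a median of 62.0% GC and 22 CpG.

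The Vmn2r29 window, at 62.3% GC and 23 CpG, was the only 1 of 1314 receptor windows with at least 15 CpG, and 2 of the 1314 reached its GC content. The Olfr1258 window, of which 18 bases lay in the MUT 28 peak and 0 in the other libraries, had 35.3% GC and 2 CpG. The Gm41538 window had 50% GC and 6 CpG, and the Gm30318 window had 50.3% GC and 9 CpG. All 300 bases of the Gm30318 window were inside the peak in each MUT library and in WT 4, 5 and 6, and 271 were in WT 7. Its region, linked to Olfr156, had a percentile of 82.5.

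**Figure D3:**
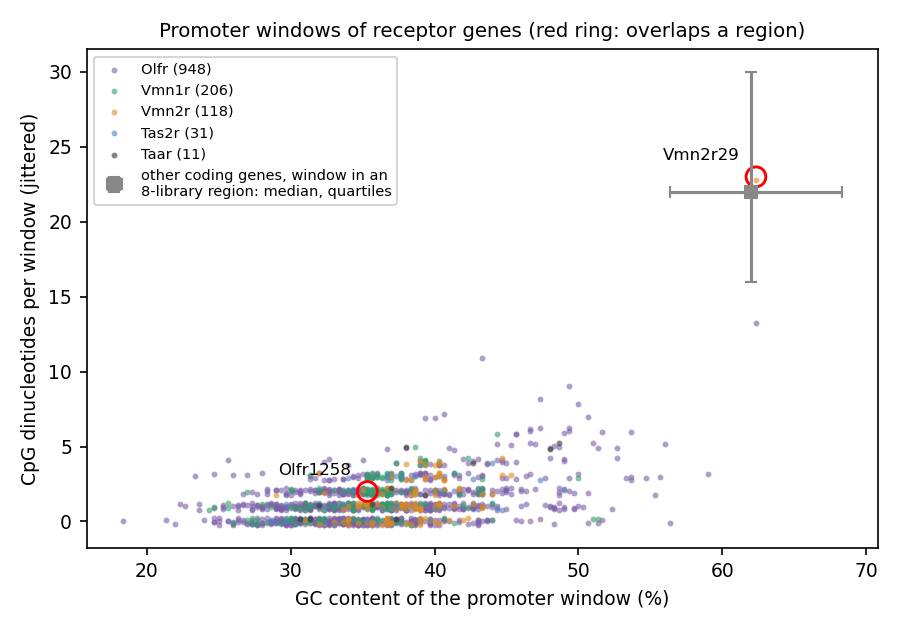
GC content (%) and number of CpG dinucleotides of the 1314 promoter windows of receptor genes, coloured by family, with a small vertical jitter; red rings mark the 2 windows that overlap a region. The grey square and bars give the median and quartiles of other coding genes' windows in regions with peaks in all 8 libraries. Vmn2r29 lies within those bars, and Olfr1258 lies among the other receptor windows.

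Motifs were searched as exact letters on both strands, and a match is a description of the sequence only. The shares were not adjusted for base composition, and the median GC content was 35.8% in receptor windows and 52.7% in all promoter windows. The CTCF motif was in 0.837% of receptor windows and in 8.61% of all promoter windows, and in 2 of 118 Vmn2r windows, of which Vmn2r29 is one. The ETS motif CCGGAA was in 1.37% of receptor windows and in 14.9% of all. The T-box motif AGGTGTGA, found 3 times in the Gm30318 window, was in 1.22% of receptor windows and in 1.28% of all. The matches in the windows printed above do not overlap each other. The homeodomain core TAATTA was in 16.5% of receptor windows and in 5.29% of all. The TATA box TATAAA was in 39.5% of receptor windows and in 13.6% of all, and the AP-1 motif TGANTCA in 15.7% of receptor windows and in 7.81% of all. The RUNX motif ACCACA was in 19.0% of receptor windows and in 16.8% of all, and the EBF motif (TCCC, any 2 bases, GGGA) in 0.381% of receptor windows and in 0.904% of all. The heat shock element (GAA, TTC and GAA with any 2 bases between them), bound by HSF1, was in 1.22% of receptor windows and in 0.603% of all, and in 0 of the 4 windows printed above.

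In the comparison of MUT with WT, few members differed. A region counted as called in MUT alone when all 4 MUT lists had a peak there and none of the WT lists did, which 1 of 103 tested members met (0.971%), against 0.583% of all tested regions. The reverse was met by 0 members, against 0.178% of all tested regions. Fisher's exact test per region, two-sided, gives at best p = 0.0286 with 4 against 4 libraries, so that 0 regions of all passed its adjusted threshold. Without MUT 26, MUT 27 or MUT 29 the number of members called in MUT alone was 2 in each case, against 0.914%, 0.777% and 1.05% of all tested regions. With links of at most 10 kb it was 0 of 63 tested members, against 0.583% of all tested regions. Fisher's unadjusted p was under 0.05 in 1 of 103 members, against 0.761% of all tested regions.

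Peak length gave a similar picture. The bases of a region covered by peaks in each library were scaled to equal library totals and compared on the log2(bp + 200) scale with limma, which understates the change of short regions, and p-values were adjusted by Benjamini-Hochberg over all 50044 regions. In MUT, 2 of 103 members were longer at an adjusted p of 0.05 (1.94%), against 0.681% of all regions. Shorter in MUT at that threshold were 0 of 103 members, against 0.234% of all. At an unadjusted p under 0.05 there were 11 of 103 members in either direction (10.7%), against 10.5% of all regions. All 4 MUT lengths lay above all 4 WT lengths in 5 of 103 members (4.85%), against 4.19% of all regions, and below them in 2 (1.94%), against 1.73% of all regions. The median log2 difference was -0.0017 over the 103 members and -0.019 over all regions.

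Summed over the regions of each gene, 72 receptor genes were tested among 14125 genes. Length was higher in MUT for 2 of 72 (2.78%), against 0.46% of all genes, namely Olfr1510 and Vmn2r97, the genes of the regions that passed singly. Vmn2r97 also passed with links of at most 10 kb (log2 1.67, limma, adjusted p = 0.0369), which leave out its region that passed. Its regions within 10 kb, with median percentiles of 34.3, 18.9 and 31.1, had 0 bp in every WT library. The size of that log2 value is therefore set by the pseudocount. Length was lower in MUT for 0 of 72, against 0.262% of all genes, and 8 of 72 (11.1%) had an unadjusted p under 0.05, against 11.8% of all. All 4 MUT lengths lay above all 4 WT lengths in 5 of 72 genes, against 4.25% of all genes, and below them in 2, against 1.54%. The shares of members that passed rest on 2 genes and 2 regions.

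The region linked to Olfr1510 was the one called in MUT alone. This odorant receptor gene lies on chromosome 14 (52409889 to 52410927), and the region, from 52427632 to 52428034, is 16906 bp from it. The peak was 366, 380, 379 and 354 bp long in MUT libraries and 0 bp in each of the 4 WT libraries. The groups did not overlap, with means of 370 ± 12.3 bp in MUT and 0 ± 0 bp in WT (SD, n = 4 each). The region was longer in MUT (log2 1.49, SE 0.103, limma, adjusted p = 0.000616), and Fisher's exact p was 0.0286. As all WT values are 0, the size of this log2 value is set by the pseudocount, and it was 3.04 with 50 bp and 0.45 with 1000 bp, each past the threshold. Within their lists the MUT peaks ranked at percentiles of 76.2, 86.7, 69.9 and 44.1. With the upper 50% of each list alone the adjusted p of the region was 0.351, since the peak of MUT 29 lies in the lower part of its list. The promoter window of Olfr1510 itself had 0 bases in any peak.

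The same region overlaps the start of Trav1, the first variable segment of Tcra, the T cell receptor alpha locus, whose segments are rearranged in T cells. The Tcra locus spans 52427967 to 54224198 in the annotation and held 50 regions. Of these, 43 were tested, 25 had a peak in all 8 libraries, 3 were called in MUT alone, the Trav1 region among them, and 0 in WT alone, where these calls were made in 0.583% and 0.178% of all tested regions. The region at Olfr1509, from 52450961 to 52451530, lies in the same locus and had a peak in every library (530 ± 20.5 bp in MUT and 464 ± 51.9 bp in WT, SD, n = 4 each; limma, adjusted p = 0.585).

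T cell marker genes had peaks in both genotypes. The summed peak length of the 6 T cell markers was 4612 to 6951 bp in MUT libraries and 4472 to 4890 bp in WT libraries. Cd3e, a chain of the T cell receptor complex that was also used as the negative sorting marker, had 670 ± 227 bp in MUT and 466 ± 47.5 bp in WT (SD, n = 4 each; limma, adjusted p = 0.530). Cd3d and Cd3g had gene-end peaks in all 8 libraries, Cd4 had a gene-end peak in 4 libraries but no length linked to it as the nearest gene, and 0 of the 5 T cell markers tested passed the threshold (lowest limma adjusted p = 0.384, at Cd5). The 6 B cell markers summed to 1401 to 2877 bp in MUT libraries and 1279 to 2345 bp in WT libraries. The part of either cell type in the Olfr1510 result was not tested.

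Vmn2r97, a V2R pheromone receptor gene on chromosome 17 (18914322 to 18948071), had 4 regions and the other difference that passed. Its summed length was 1556, 1129, 1504 and 1168 bp in MUT libraries and 241, 518, 321 and 299 bp in WT libraries. The genotypes did not overlap, with means of 1339 ± 222 bp in MUT and 345 ± 120 bp in WT (SD, n = 4 each). The length rose in MUT (log2 1.48, SE 0.160, limma, adjusted p = 0.00879). The log2 value was 0.78 with a pseudocount of 1000 bp and 2.41 with the upper 50% of each list, each past the threshold. The upper 50% leaves out every WT peak linked to this gene, so the size of the 2.41 is set by the pseudocount.

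Most of this came from the region from 18968345 to 18969251, which lies 20727 bp from Vmn2r97. There the peak was 907, 879, 846 and 860 bp long in MUT libraries and 241, 518, 321 and 299 bp in WT libraries (873 ± 26.4 bp in MUT and 345 ± 120 bp in WT, SD, n = 4 each). It was longer in MUT (log2 0.97, SE 0.131, limma, adjusted p = 0.00922), with a log2 value of 0.47 at a pseudocount of 1000 bp. With the upper 50% of each list the log2 value was 2.41, but that cut drops the peak of every WT library there. Its score percentiles were 84.6, 86.2, 83.1 and 79.6 in MUT libraries and 16.1, 40.1, 37.4 and 42.8 in WT libraries. These are ranks within lists of different lengths and describe each list only. All 8 libraries thus had a peak there, and the MUT peaks were the longer.

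The added length lay over the start of a non-coding RNA gene. The region contains the start of Gm41538 (18954534 to 18969059), transcribed from the minus strand, and the nearest coding gene end outside the receptor families lies 734082 bp away. Of the 300 bases of the Gm41538 window printed above, 260, 260, 236 and 250 were inside the peak in MUT libraries and 0 in each of the 4 WT libraries. The WT peaks ended 74 bp past the centre of the region at most (WT 5), whereas the MUT peaks reached 453, 453, 429 and 443 bp past it. The window holds 1 TATA box and 1 AP-1 match. The promoter window of Vmn2r97 itself had 0 bases in any peak.

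**Figure D4:**
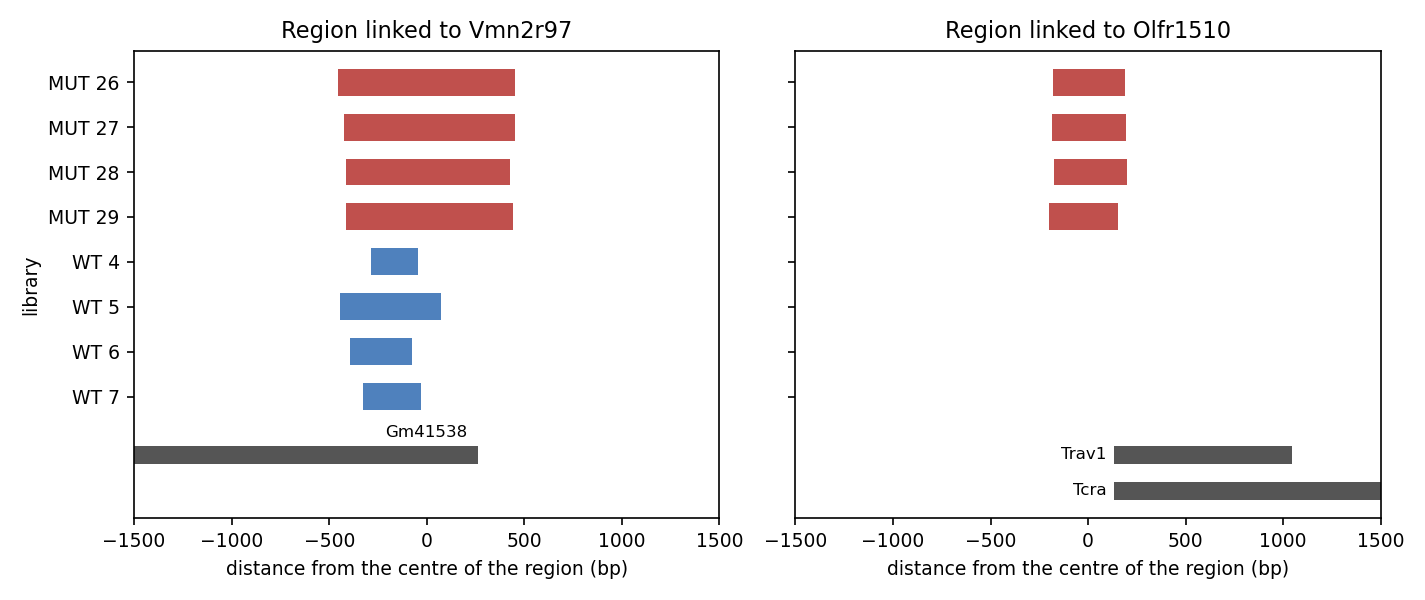
Extent of the peak in each library (bars, 4 MUT libraries above 4 WT libraries) around the centre of the regions linked to Vmn2r97 (left) and Olfr1510 (right), in bp from the centre, with the overlapping annotated genes in grey. At Vmn2r97 all libraries have a peak and the MUT peaks extend over the right end of Gm41538, where its transcript starts; at Olfr1510 the 4 WT libraries have none.

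The remaining Vmn2r97 regions were weaker and did not pass the test. The one inside the gene body (18947280 to 18947577) had peaks of 298, 250, 200 and 0 bp in MUT libraries and 0 bp in each WT library (limma, adjusted p = 0.354). The region from 18957697 to 18958097, inside Gm41538, had 351, 0, 246 and 308 bp in MUT libraries and 0 bp in each WT library (limma, adjusted p = 0.345). The last had a peak of 212 bp in MUT 28 alone.

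The bitter taste receptor gene Tas2r134 did not pass the test. Its region from 51581323 to 51582361 had 746, 913, 851 and 590 bp in MUT libraries and 369, 359, 885 and 520 bp in WT libraries (log2 0.42, limma, adjusted p = 0.550). WT 6 was as high as the MUT libraries, so that the lengths overlapped. Another region, from 51637760 to 51638130, had 0, 340, 343 and 226 bp in MUT libraries and 0 bp in each WT library. Over all its regions the gene had 1423 ± 412 bp in MUT and 815 ± 238 bp in WT (SD, n = 4 each; log2 0.63, SE 0.186, limma, adjusted p = 0.231).

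Vmn2r82 was the receptor gene with the lowest p-value among those shorter in MUT. Its region on chromosome 10 (79417061 to 79418089) had 740, 737, 576 and 661 bp in MUT libraries and 973, 897, 784 and 903 bp in WT libraries. The groups did not overlap, yet the difference did not pass the test (log2 -0.35, limma, adjusted p = 0.149). Olfr266 also had all 4 MUT lengths (447, 466, 488 and 464 bp) below all 4 WT lengths (498, 511, 521 and 493 bp), with a smaller difference (gene fit, log2 -0.11, limma, adjusted p = 0.558).

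Olfr524, Olfr525 and Olfr374 had MUT lengths above all WT lengths and did not pass. Olfr524 had 1541 ± 124 bp in MUT and 1321 ± 120 bp in WT (SD, n = 4 each; log2 0.16, limma, adjusted p = 0.389). Olfr525 had 929 ± 70.6 bp in MUT and 769 ± 80.5 bp in WT (SD, n = 4 each; log2 0.19, limma, adjusted p = 0.334). Both lie in the receptor cluster of chromosome 7 that borders Cd163l1.

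**Figure D5:**
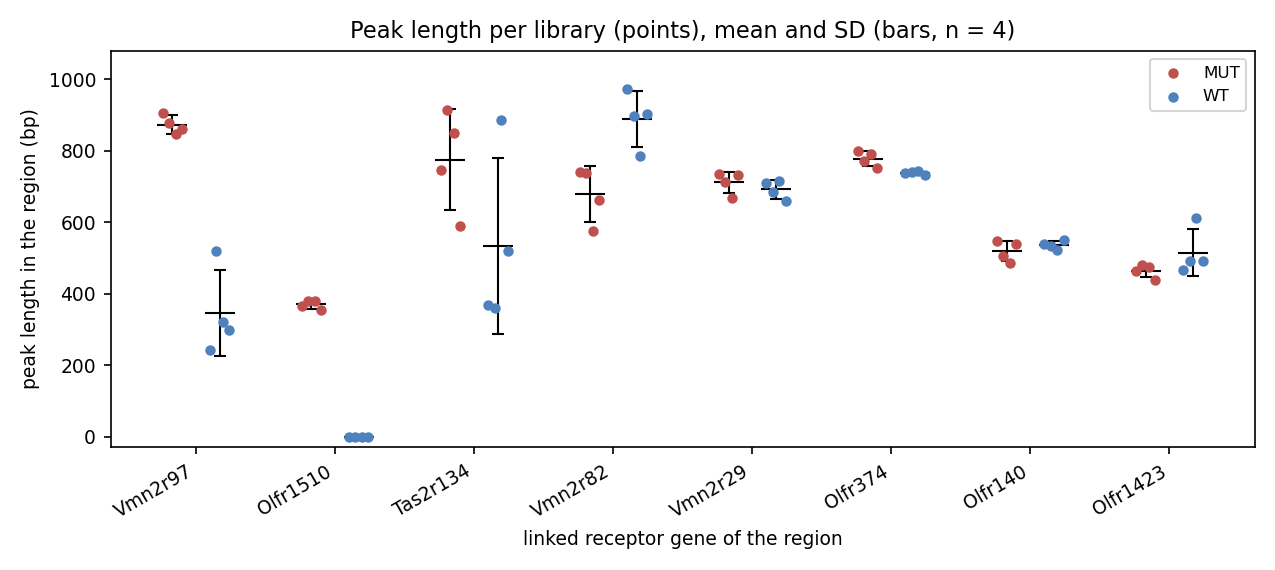
Peak length (bp) in each library (points) with mean and SD (bars, n = 4) in 1 region of each of 8 receptor genes, MUT left of WT. The genotypes do not overlap at Vmn2r97, Olfr1510, Vmn2r82 and Olfr374, and the first 2 passed the test.

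Among the genes that work with chemosensory receptors, 0 passed the test. Of 20 genes of chemosensory signalling, which include G proteins, channels and receptor transporters of sensory cells, 19 were in the gene table, 10 had linked peaks in at least 2 libraries and were tested, and 6 had a gene-end peak in all 8 libraries, as did 51.0% of all coding genes. Those with peaks included genes of wide use, such as Gnai2, an inhibitory G protein alpha subunit, with 2643 ± 175 bp in MUT and 2360 ± 20.2 bp in WT (SD, n = 4 each; limma, adjusted p = 0.255, the lowest of the list). Omp, the olfactory marker protein gene, and Gnal, the olfactory G protein gene, had linked peaks in both genotypes (279 ± 40.2 bp in MUT and 256 ± 39.8 bp in WT for Omp, SD, n = 4 each) but none within 1 kb of their ends. Cnga2, a channel subunit gene of olfactory neurons, had 0 bp in every library. Cnga4, also on the olfactory neuron marker list, went the other way, with a gene-end peak in all 8 libraries. It had 740.5 ± 116 bp in MUT and 783 ± 115 bp in WT (SD, n = 4 each, limma, adjusted p = 0.768).

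Of 12 genes that regulate receptor choice in olfactory neurons, 11 were tested, 6 had a gene-end peak in all 8 libraries and 0 passed the test (lowest limma adjusted p = 0.397, at Adcy3). Lbr, the lamin B receptor gene that tethers heterochromatin to the nuclear envelope, had 3479 ± 106 bp in MUT and 3351 ± 119 bp in WT (SD, n = 4 each; limma, adjusted p = 0.945). Lhx2, a homeodomain factor gene of olfactory neurons, had 357 ± 299 bp in MUT and 177 ± 121 bp in WT (SD, n = 4 each; limma, adjusted p = 0.801). The median log2 difference was -0.077 over the tested signalling genes and -0.022 over the tested regulators, against -0.020 over all genes.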

How the data were processed

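Each library has its own peak list, and no pooled list was used. A line gives a position, a name and a number with no heading. That number was treated as a score, the authors' own value for the peak, and was used here as a percentile within its list. Per the submitters' processing notes, reads were handled on mm10 (GRCm38) and the software named is Bowtie2 2.3.4.1, DiffBind 3.0.12, Trimmomatic and DESeq2, without saying what each did. What called the peaks, at which threshold, with which read filters and transposase offset is not given in the sources used here. Without read counts in the lists, depth is unknown and no count model was run.

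Peaks were merged at an overlap of 1 bp and each region was linked to the nearest coding gene end of the RefSeq gene table (GRCm38.p6, 21887 coding genes, no strand), within 50 kb of its midpoint. Features with a peak in at least 2 libraries were tested. Presence was tested with Fisher's exact test, two-sided. Peak lengths in bp, with library totals scaled to their median, were compared by limma 3.58.1 with a trend, after log2(bp + 200). Adjusted p-values are Benjamini-Hochberg values over all regions or genes, with a threshold of 0.05. Lengths printed in bp are not scaled. The software was Python 3.11.15 with scipy 1.17.1, and R 4.3.3, and the code was tested on simulated data. Each mouse was a biological replicate, per the labels' protocols.

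The members, gene lists, tests and alternatives were chosen with earlier results of these data known. Named regions are those called in 1 genotype or past the length threshold, the 10 with the highest median percentile, those with peaks in all 8 libraries at the receptor gene or within 1 kb of it, the strongest of each family and those next to the distance limit. Named genes are those past the threshold, the 5 with the most peak length and at most 6 per list. Other genes, among them Vmn2r82, Vmn1r21, Olfr525, Olfr750 and Tas2r144, the weaker regions of Tas2r134 and Vmn2r97 and the neighbouring genes, were named after their values were seen. Alternatives changed the peak threshold, the merging overlap, the linking distance and its origin, the pseudocount, the filter, the scaling, the call rule and the libraries kept.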

Additional observations from a re-analysis of the deposited data

Results flagged for a closer look

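Among 72 groups of 4 libraries examined, 8 had a library whose gap to the others was large for the group's range. The usual rate of about 1 in 20 groups assumes unrelated groups. Here the Vmn2r87 total is the sum of its 2 regions, and a peak in a single library, as at Taar4, is always flagged. The count of 8 can therefore not be set against that rate. In MUT 27, the linked peak length of Vmn1r234 was 1675 bp and the peak of the Olfr530 region from 140374117 was 598 bp, each above the other 3 MUT libraries. In MUT 29, Vmn2r87 had 1203 bp in all, with 696 bp in its region from 130541871 and 507 bp in its region from 130470214, each below the other 3 MUT libraries. In MUT 28, the Olfr1509 region from 52450961 had 560 bp and the Taar4 region from 23965037 had 284 bp, each above the other 3 MUT libraries. In WT 6, Olfr1258 had 1817 bp, below the other 3 WT libraries.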

How the results depend on the processing

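Linking within 10 kb left 72 regions, 35 of them with a peak in all libraries. Of the 63 tested, 0 were called in MUT alone, against 0.583% of all tested regions, and 0 were longer in MUT, against 0.681%. The Olfr1510 region and the main Vmn2r97 region lie farther away. At 10 kb, 1 gene (Vmn2r97) was higher, where 0.46% of all genes were with links of 50 kb. The upper 50% of each list left 57 regions, 31 of them in all libraries. It called 2 of 50 tested in MUT alone (at Vmn2r97 and Tas2r134), against 0.851% of all tested regions. In the full lists every WT library has a peak at both, which this cut drops. The MUT minus WT difference in peak share was 0.020 percentage points with this cut, against 0.0025 with all peaks. With all peaks and 1 library left out, the difference spanned -0.00045 (without WT 5) to 0.0054 (without WT 6). Calling at a difference of 3 libraries gave 4 of 103 regions, against 2.68% of all. Leaving out 1 library gave 1 to 2 regions called in MUT alone, with 2 without MUT 26, MUT 27 or MUT 29 (at Tas2r134 or Vmn2r97 beside Olfr1510). Members called in WT alone, or shorter in MUT, stayed at 0 under every alternative run. With 1 library left out, Vmn2r97 passed in 8 of 8 gene fits (log2 1.38 to 1.61, limma, highest adjusted p = 0.0377) and Olfr1510 in 8 of 8 (log2 1.49 to 1.504, limma, highest adjusted p = 0.0409). With the upper 50% of each list Olfr1510 no longer passed (gene log2 1.11, limma, adjusted p = 0.423; region log2 1.11, limma, adjusted p = 0.351), as the MUT 29 peak is dropped. Of the 5 named genes that never passed, 3 changed sign. Olfr1258 was at 0.14 with the upper 50% and spanned -0.19 to 0.016 with 1 library left out. Vmn1r234 was at 0.0017 with equal numbers of peaks and 0.014 without scaling, and spanned -0.040 to 0.0079. Vmn1r4 was at 0.30 with equal numbers of peaks, 0.017 at 10 kb and 0.017 without scaling, and spanned -0.037 to 0.013. The cause of these sign changes was not tested. No paired analysis was possible because the genotypes share no replicate number. Peak lists without read counts cannot show how open a region without a called peak is.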
